A study of Homo sapiens with 9 samples.

Results

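The genes described are 10 chemokines and cytokines that epithelial cells can make, namely CXCL1, CXCL2, CXCL3, CXCL8, CCL20, IL1A, IL1B, IL1RN, IL6 and LIF. They were taken as every probe set whose platform annotation names exactly 1 of these symbols, which gave 19 of the 54675 probe sets on the array and 10 of the 19775 genes that a single-gene probe set names. RNA came from MCF10A, a human line of immortalized but non-tumorigenic breast epithelial cells that needs added EGF to grow, and was hybridised to 9 one-colour Affymetrix arrays. In 1 group of 3 arrays the cells carried a pBabe retrovirus for ERBB2, a receptor tyrosine kinase of the EGF receptor family. In another group of 3 the cells carried the empty pBabe virus and received 50 ng/ml EGF for 2 h before harvest, and the vector group of 3 carried the empty virus without EGF. Once infected, the cells of every group were moved to medium that held 2% horse serum and no EGF. Before that, their maintenance medium had EGF at 20 ng/ml, horse serum at 5%, insulin at 10 microgram/ml, cholera toxin at 100 ng/ml and hydrocortisone, a glucocorticoid of the kind known to repress many cytokine genes, at 0.5 microgram/ml. The labels do not say whether insulin, cholera toxin and hydrocortisone stayed in the assay medium, how long after infection cells were harvested, or whether infected cells were pooled or cloned. They call the replicates biological without naming separate infections, so p-values cover the spread between the samples, which may be technical.

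The label of the ERBB2 group was checked first. The brightest ERBB2 probe set read 98.8 ± 23.1 (SD, n = 3) on arrays labelled ERBB2, 104.1 ± 23.3 on EGF arrays and 174.0 ± 48.0 on vector arrays, so it was lower under that label (log2 difference -0.72, limma adjusted p = 0.006756). A dimmer ERBB2 probe set read 35.6 ± 2.51 on arrays labelled ERBB2 and 12.6 ± 8.78 on vector arrays, and was higher (0.89, limma adjusted p = 0.008824). The third tested ERBB2 probe set read 17.1 ± 7.17 on arrays labelled ERBB2 and 14.8 ± 6.77 on vector arrays, and was not called (0.10, limma adjusted p = 0.8236). The group is therefore called "labelled ERBB2" below, and each direction given for it rests on that label. DUSP6, a phosphatase gene induced by ERK signalling, read 962.6 ± 233.1 on arrays labelled ERBB2, 2789 ± 219 on EGF arrays and 9.42 ± 7.51 on vector arrays. Of 9 mammary epithelial markers 7 had a probe set, and their summed signal ranged from 17290 to 18660 on arrays labelled ERBB2, 19590 to 22440 on EGF arrays and 21410 to 24280 on vector arrays. Single markers shifted more than the sum: KRT14, a basal keratin, averaged 148.9 on arrays labelled ERBB2, 1758 on EGF arrays and 2640 on vector arrays, and EPCAM, an epithelial adhesion molecule, averaged 2357 on arrays labelled ERBB2, 1413 on EGF arrays and 1063 on vector arrays. The part of these shifts in the results was not tested. The 5' to 3' ratio of the ACTB control, a sign of RNA and label quality, ranged from 0.70 to 0.80 on arrays labelled ERBB2, 0.38 to 0.50 on EGF arrays and 0.33 to 0.44 on vector arrays. For the GAPDH control this ratio was 0.84 to 0.90 on arrays labelled ERBB2 and 0.82 to 0.89 on vector arrays, which overlapped. On EGF arrays it was 0.76 to 0.85. The ACTB ratio moved with every difference given below for the arrays labelled ERBB2, and its part in them was not tested.

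Chemokines are small secreted proteins that draw in leukocytes by way of receptors on those cells. CXCL1, CXCL2, CXCL3 and CXCL8 belong to the ELR group of CXC chemokines, which attract neutrophils through CXCR1 and CXCR2, and CCL20 attracts cells that carry CCR6. IL1A and IL1B are agonists of the interleukin 1 receptor, IL1RN is its natural antagonist, and IL6 and LIF signal through receptors that share the subunit IL6ST, also called gp130. In epithelial cells many of these genes are known to be switched on within hours by NF-kB, AP-1 and ERK signalling, and many of their mRNAs are short-lived.

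The 4 CXC genes lie near each other on chromosome 4, CXCL8 at 73740569 to 73743716, CXCL1 at 73869393 to 73871308, CXCL3 at 74036589 to 74038689 and CXCL2 at 74097040 to 74099195 (RefSeq, GRCh38.p14). IL1A, IL1B, IL1RN and CCL20 are on chromosome 2, IL6 on chromosome 7 and LIF on chromosome 22. The 250 bases before the start site are shown for the 5 chemokines. CXCL1, CXCL2 and CXCL3 have closely alike promoters while the calls of their transcripts differed, and CXCL8 and CCL20 had the largest changes. The windows are chr4:73869143-73869392 (+ strand), chr4:74099196-74099445 (- strand), chr4:74038690-74038939 (- strand), chr4:73740319-73740568 (+ strand) and chr2:227813592-227813841 (+ strand), from RefSeq on GRCh38.p14, each written 5' to 3' on the gene's strand. Capitals mark matches on either strand to GGNNTTTCC, a core of NF-kB sites, or to TGANTCA, the AP-1 motif.
CXCL1: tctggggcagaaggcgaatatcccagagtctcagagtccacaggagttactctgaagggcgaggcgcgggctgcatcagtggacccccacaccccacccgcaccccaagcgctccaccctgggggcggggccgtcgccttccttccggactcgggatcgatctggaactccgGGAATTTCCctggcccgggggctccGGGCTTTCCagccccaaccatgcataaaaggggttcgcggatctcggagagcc
CXCL2: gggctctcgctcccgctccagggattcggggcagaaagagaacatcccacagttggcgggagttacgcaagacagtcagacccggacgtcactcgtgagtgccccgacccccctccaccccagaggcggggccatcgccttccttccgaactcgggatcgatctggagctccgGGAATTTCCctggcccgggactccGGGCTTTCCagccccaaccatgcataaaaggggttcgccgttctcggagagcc
CXCL3: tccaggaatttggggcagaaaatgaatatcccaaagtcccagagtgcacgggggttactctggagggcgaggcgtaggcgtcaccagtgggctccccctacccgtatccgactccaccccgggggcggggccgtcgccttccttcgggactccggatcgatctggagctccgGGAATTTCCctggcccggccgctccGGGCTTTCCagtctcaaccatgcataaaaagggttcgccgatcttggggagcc
CXCL8: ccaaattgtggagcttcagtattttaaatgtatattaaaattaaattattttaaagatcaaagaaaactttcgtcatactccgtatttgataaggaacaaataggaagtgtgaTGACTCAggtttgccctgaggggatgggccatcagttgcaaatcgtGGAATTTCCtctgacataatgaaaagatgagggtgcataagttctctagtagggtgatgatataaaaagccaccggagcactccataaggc
CCL20: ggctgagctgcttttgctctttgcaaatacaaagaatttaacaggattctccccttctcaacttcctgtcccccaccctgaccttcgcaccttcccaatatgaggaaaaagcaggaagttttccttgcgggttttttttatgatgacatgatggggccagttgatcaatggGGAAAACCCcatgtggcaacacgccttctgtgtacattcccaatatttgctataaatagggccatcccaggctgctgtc

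In global alignments these windows of CXCL1 and CXCL3 were 81.4% identical, those of CXCL2 and CXCL3 73.4% and those of CXCL1 and CXCL2 70.1%, against 43.9% for CXCL1 and CXCL8. CXCL1, CXCL2 and CXCL3 each held a pair of matches to GGNNTTTCC, the second starting 53 bases before the start site in each. CXCL8 held 1 such match, 91 bases before its start, and 1 match to TGANTCA, 137 bases before it, and CCL20 held 1 match to GGNNTTTCC on the opposite strand. Promoters of 9 of the 10 genes were in the reference table. Of these 9 genes 7 had a match to GGNNTTTCC in at least 1 window, IL6 among them, and 3 (CXCL8, IL1A and IL1RN) had one to TGANTCA. No match overlapped another. Of all 35116 windows of this length in the table, 5.48% held GGNNTTTCC and 6.57% held TGANTCA. These shares are per window, whereas the counts above are per gene over 12 windows. IL1RN counts for GGNNTTTCC through 1 of its 3 windows. The alike windows of CXCL1, CXCL2 and CXCL3 are not separate observations. A match of letters is a description and does not show that a factor binds there, and both motifs were chosen with the sequences in view.

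CXCL8, the chemokine interleukin 8, was higher under both stimuli, by log2 differences near 2.5. Its brighter probe set, 202859_x_at, read 185.7, 159.9 and 235.0 on arrays labelled ERBB2, 167.8, 187.3 and 183.8 on EGF arrays, and 14.1, 18.7 and 27.9 on vector arrays. All 6 stimulated arrays lay far above the 3 vector arrays, and the stimulated groups overlapped each other. The log2 difference of signal + 16, the scale of all changes below, was 2.53 ± 0.17 (SE, limma adjusted p = 3.912e-10) for arrays labelled ERBB2 against vector, a 5.79-fold difference. With EGF it was 2.45 ± 0.17 (limma adjusted p = 1.773e-09). Since vector signals were near the added 16, the fold depends on it, and with 64 added the differences were 1.61 and 1.54. The other CXCL8 probe set, 211506_s_at, read 74.9 ± 13.6 (SD, n = 3) on arrays labelled ERBB2, 68.1 ± 11.6 on EGF arrays and 5.34 ± 6.53 on vector arrays, and also rose in both comparisons (2.12 and 2.01). In bulk RNA such as this, more cells with a transcript and more transcript per cell cannot be told apart. Directly between the stimuli, labelled ERBB2 minus EGF, the difference of the brighter set was 0.09, with a 95% interval from -0.27 to 0.44 (limma adjusted p = 0.7848).

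CCL20, the ligand of CCR6, had the largest rise with EGF among the 10 genes. It read 371.0, 360.6 and 439.4 on arrays labelled ERBB2, 790.1, 833.0 and 809.7 on EGF arrays, and 68.2, 35.9 and 67.6 on vector arrays. The 3 groups did not overlap, with the EGF arrays highest and the vector arrays lowest. Labelled ERBB2 minus vector, the log2 change was 2.50 ± 0.15 (SE, limma adjusted p = 7.375e-11), and it was 3.53 ± 0.15 (limma adjusted p = 1.548e-12) with EGF. Tested directly, CCL20 was lower on arrays labelled ERBB2 than on EGF arrays by a log2 difference of -1.03 ± 0.15 (limma adjusted p = 3.417e-05).

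**Figure D1:**
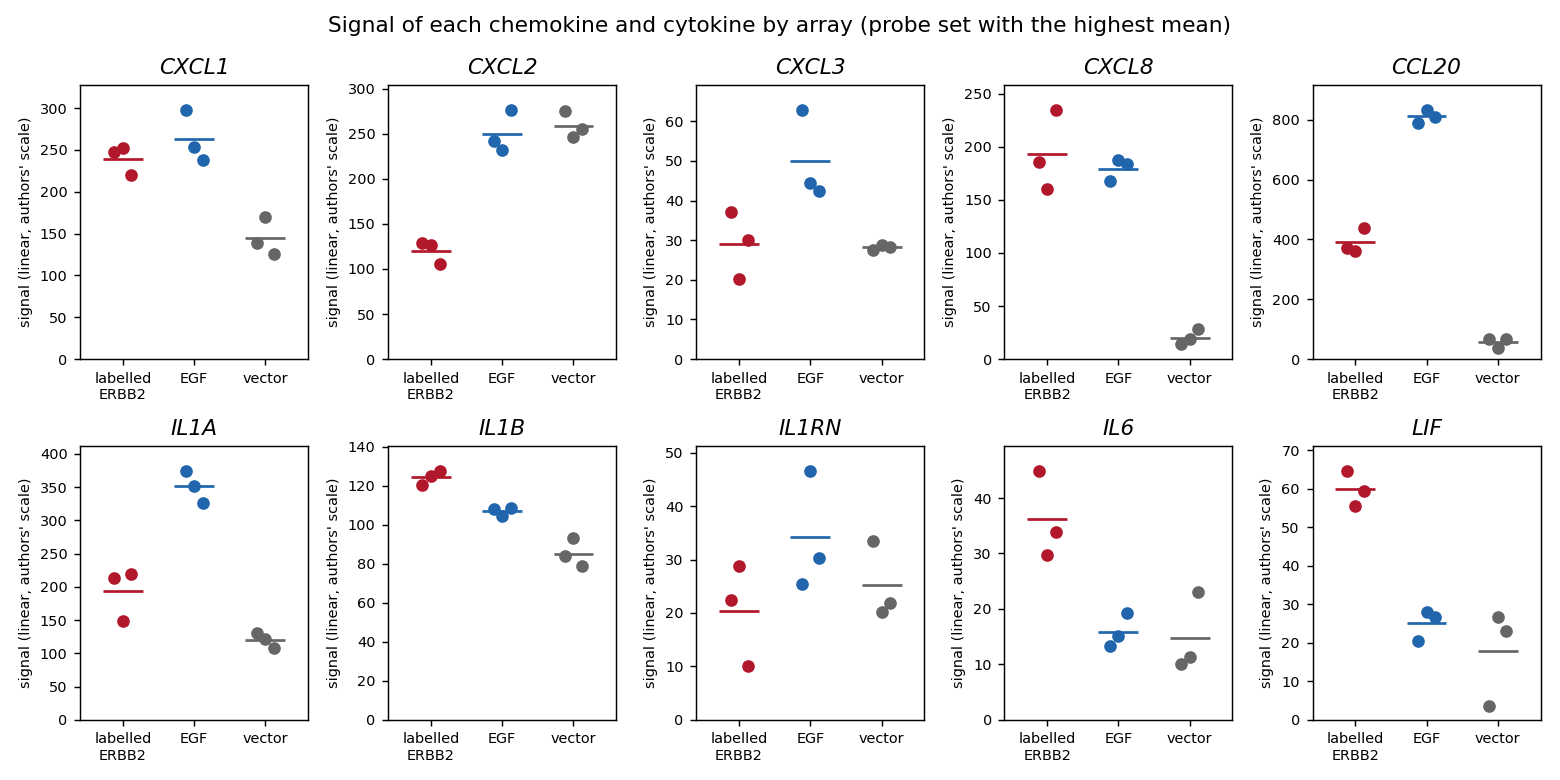
Linear signal on the authors' scale for each of the 10 genes, taken from the brightest of its probe sets, on the 3 arrays labelled ERBB2, the 3 EGF arrays and the 3 vector arrays. Points are arrays and bars are group means. CXCL8 reads at least 159.9 on all 6 stimulated arrays and at most 27.9 on vector arrays, while CXCL2 is lowest on arrays labelled ERBB2 and IL6 and LIF are highest there.

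CXCL1, CXCL2 and CXCL3 encode the GRO chemokines, near relatives of one another. On arrays labelled ERBB2, CXCL1 and CXCL2 were called in opposite directions and CXCL3 was not called. The genes were not tested against one another. CXCL1 read 247.3, 251.8 and 219.7 on arrays labelled ERBB2, 297.8, 253.8 and 238.0 on EGF arrays, and 138.5, 170.1 and 125.6 on vector arrays. Every stimulated array was above every vector array, and the stimulated groups overlapped. The log2 rise was 0.68 ± 0.13 (SE, limma adjusted p = 0.000279) on arrays labelled ERBB2 and 0.80 ± 0.13 (limma adjusted p = 8.344e-05) with EGF. The difference between the stimuli was -0.12, with a 95% interval from -0.40 to 0.15 (limma adjusted p = 0.5548).

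CXCL2 went the other way on arrays labelled ERBB2. It read 129.4, 126.7 and 105.0 there, 242.6, 231.8 and 276.7 on EGF arrays, and 275.2, 247.1 and 254.9 on vector arrays. The arrays labelled ERBB2 lay below all others, and the EGF and vector arrays overlapped. The log2 fall was -1.02 ± 0.12 (SE, limma adjusted p = 1.146e-06) against vector and -0.97 ± 0.12 (limma adjusted p = 5.941e-06) against EGF. With EGF the difference from vector was -0.05, with a 95% interval from -0.30 to 0.21 (limma adjusted p = 0.8141), and its sign was positive with equal array medians (0.24). The probe set, 209774_x_at, is of the kind whose probes can also match similar sequences, so signal from CXCL1 or CXCL3 transcripts cannot be told apart from that of CXCL2. The remaining CXCL2 probe sets did not pass the filter on low values and read at most 15.4 on any array. Averaged with them, the fall was -0.61 against vector (limma adjusted p = 0.005765) and -0.40 against EGF (limma adjusted p = 0.06881).

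CXCL3 was dim. It read 37.1, 20.1 and 30.1 on arrays labelled ERBB2, 62.9, 44.6 and 42.4 on EGF arrays, and 27.6, 28.7 and 28.4 on vector arrays. The EGF arrays were above all others, and the arrays labelled ERBB2 lay on both sides of the vector arrays. The log2 difference with EGF was 0.56 ± 0.22 (SE, limma adjusted p = 0.06107), which did not pass the threshold, but 7 of 20 alternative settings gave a call, with adjusted p between 0.0083 and 0.2395 over the 20. On arrays labelled ERBB2 the difference from vector was 0.01, with a 95% interval from -0.45 to 0.47. Against EGF it was -0.55 ± 0.22 (limma adjusted p = 0.07579), with adjusted p between 0.01671 and 0.2848 over the alternatives.

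IL1A, an interleukin 1 receptor agonist that is also active as its unprocessed precursor, rose most with EGF by its brighter probe set, 210118_s_at. That set read 214.0, 148.4 and 218.9 on arrays labelled ERBB2, 374.9, 352.2 and 326.1 on EGF arrays, and 130.3, 121.1 and 108.3 on vector arrays. The 3 groups did not overlap. The log2 change was 0.61 ± 0.14 (SE, limma adjusted p = 0.001384) on arrays labelled ERBB2 and 1.44 ± 0.14 (limma adjusted p = 1.347e-07) with EGF, and the arrays labelled ERBB2 were lower than EGF arrays by -0.82 ± 0.14 (limma adjusted p = 0.0001616). The other IL1A probe set, 208200_at, disagreed. It read 12.2, 1.54 and 15.9 on arrays labelled ERBB2, 10.4, 21.1 and 16.5 on EGF arrays, and 23.3, 39.4 and 21.0 on vector arrays, and it was called lower on arrays labelled ERBB2 (-0.78 ± 0.29, limma adjusted p = 0.03678). Among all 32768 probe sets, 38.7% were called on arrays labelled ERBB2 against vector, 28.8% with EGF, and 23.8% on arrays labelled ERBB2 against EGF. With both sets averaged, the IL1A difference was -0.09 on arrays labelled ERBB2 (limma adjusted p = 0.7068) and 0.50 with EGF (limma adjusted p = 0.03704). With EGF, 208200_at was at -0.445 and was not called (limma adjusted p = 0.2773). The sign of the IL1A difference therefore depends on the probe set in both comparisons with vector. Only on arrays labelled ERBB2 were the sets called in opposite directions, and 208200_at read near the added 16 on EGF arrays. Probe positions were not used here.

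IL1B, the agonist that inflammatory caspases cleave to its active form, changed less. By 39402_at it read 120.6, 124.9 and 127.8 on arrays labelled ERBB2, 108.2, 104.4 and 108.5 on EGF arrays, and 83.8, 93.0 and 78.9 on vector arrays. The 3 groups did not overlap, with arrays labelled ERBB2 highest. The rise on arrays labelled ERBB2 against vector was 0.47 ± 0.14 on the log2 scale (SE, limma adjusted p = 0.009437), and it was 0.72 ± 0.16 (limma adjusted p = 0.0009478) by the other probe set, 205067_at. With EGF the differences of these sets were 0.28 (limma adjusted p = 0.1374) and 0.33 (limma adjusted p = 0.1272), which did not pass. The first passed with equal array medians (0.54, limma adjusted p = 0.007001), as did the average of both sets (0.31, limma adjusted p = 0.02516).

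IL1RN, the receptor antagonist, was dim in all groups. Its probe set with the highest mean, 212657_s_at, read 22.4, 28.8 and 10.1 on arrays labelled ERBB2, 25.5, 46.6 and 30.2 on EGF arrays, and 33.6, 20.1 and 21.9 on vector arrays, and the groups overlapped. The differences from vector were -0.20 (95% interval -0.74 to 0.35) on arrays labelled ERBB2 and 0.28 (-0.27 to 0.82) with EGF. None of its 3 probe sets past the filter was called by limma in any comparison, and their signs did not agree. Before adjustment 1 of the 3, 216243_s_at, had p under 0.05 and was lower in both comparisons with vector (-0.59 and -0.69).

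**Figure D2:**
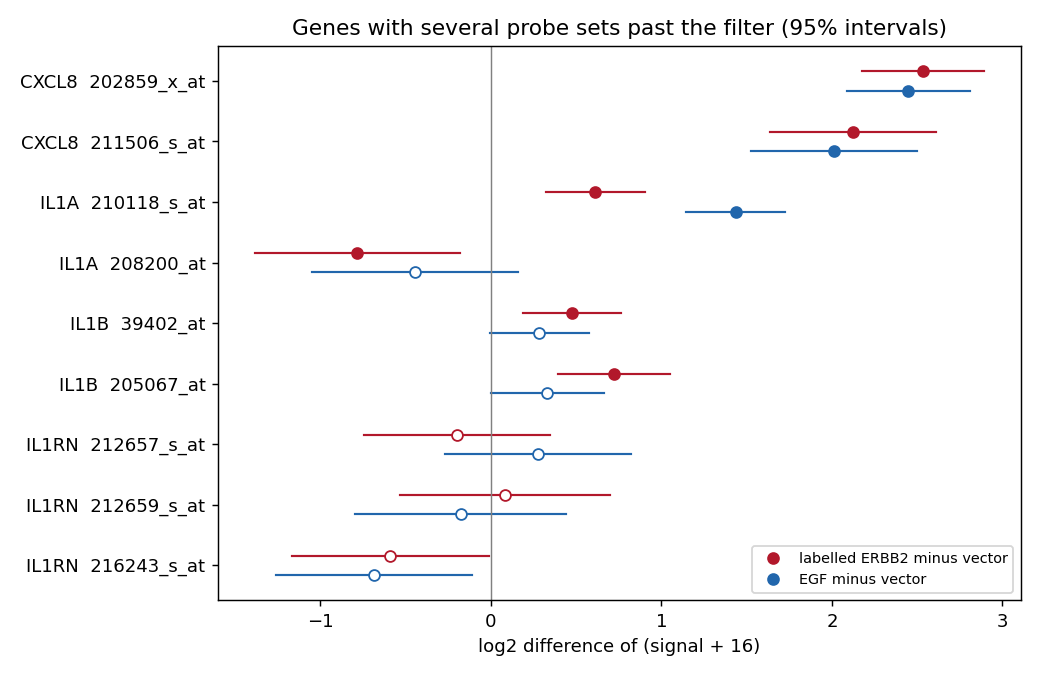
Log2 differences of signal + 16 with 95% intervals for the probe sets past the filter of the 4 genes with more than 1, for arrays labelled ERBB2 minus vector (red) and EGF minus vector (blue). Filled points have an adjusted p under 0.05. The CXCL8 and IL1B sets agree in sign, whereas the IL1A sets lie at 0.61 and -0.78 on arrays labelled ERBB2.

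IL6 and LIF, the cytokines that signal through IL6ST, were higher on arrays labelled ERBB2 and did not pass the test with EGF. LIF read 64.7, 55.5 and 59.4 on arrays labelled ERBB2, 20.4, 27.9 and 26.8 on EGF arrays, and 3.53, 26.6 and 23.2 on vector arrays. The arrays labelled ERBB2 lay above all others, and the EGF and vector arrays overlapped. The log2 rise against vector was 1.25 ± 0.27 (SE, limma adjusted p = 0.0007595), and it was 0.61 with 64 added to the signal and 2.07 with 1 added. Vector replicate 1 was far lower than the other vector arrays, and without it the rise was 0.89 (limma adjusted p = 0.004637). Against EGF the LIF difference was 0.89 ± 0.27 (limma adjusted p = 0.01794). That call ended without ERBB2 replicate 1 (0.84, limma adjusted p = 0.05895), without EGF replicate 1 (0.81, limma adjusted p = 0.07028), with 1 added to the signal and without the filter, with adjusted p between 0.00304 and 0.1122 over 20 alternatives.

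IL6 read 45.0, 29.7 and 33.8 on arrays labelled ERBB2, 13.2, 15.2 and 19.3 on EGF arrays, and 10.0, 11.4 and 23.0 on vector arrays. The arrays labelled ERBB2 were above the rest, all at low signal. The log2 rise against vector was 0.77 ± 0.25 (SE, limma adjusted p = 0.01863). It lost its call without ERBB2 replicate 1 (0.66, limma adjusted p = 0.0786), vector replicate 1 (0.66, limma adjusted p = 0.07086) or vector replicate 2 (0.70, limma adjusted p = 0.06058), and without the filter (limma adjusted p = 0.05323), with adjusted p between 0.005218 and 0.0786 over 19 alternatives. The difference from EGF, 0.70 ± 0.25 (limma adjusted p = 0.04756), ended under 12 of 19 alternatives, including the replicate block (limma adjusted p = 0.05747) and leaving out any of the 3 arrays labelled ERBB2 or the 3 EGF arrays (0.59 to 0.79). With EGF the differences from vector were 0.07 for IL6 (95% interval -0.45 to 0.59) and 0.36 for LIF (-0.20 to 0.91), where LIF was at 0.002 without vector replicate 1. Intervals this wide do not show that EGF left either gene alone at 2 h.

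Counted by the probe set with the highest mean, all 10 genes passed the filter on low values. On arrays labelled ERBB2, 7 rose (CXCL1, CXCL8, CCL20, IL1A, IL1B, IL6 and LIF), 1 fell (CXCL2) and 2 were not called, beside a background of 45.9% of all 13723 genes called in that comparison, 20.8% higher and 25.1% lower. The groups did not overlap for 8 of the 10, against 52.7% of all genes. With EGF, 4 rose (CXCL1, CXCL8, CCL20 and IL1A), none fell and 6 were not called by limma (at an unadjusted p under 0.05, 5 were higher and 0 lower), where 36.2% of all genes were called, 17.2% higher and 19.0% lower. The count of rises with EGF was 6 with equal array medians and with all probe sets averaged. With sets averaged, 1991 of 11865 genes were called higher and 2419 lower. The groups did not overlap for 6 of the 10, against 48.8% of all genes. The median log2 difference of the 10 was 0.64 on arrays labelled ERBB2 and 0.46 with EGF, beside -0.07 and -0.10 over all genes. Equal array medians raised the median change with EGF over all probe sets to 0.11, against -0.11, and the split of calls to 7328 higher and 2063 lower, against 4234 and 5211. Under that scaling CXCL1, CXCL8, CCL20 and IL1A were still called higher. These genes were chosen with earlier results known, so the counts are a description.

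Both comparisons above use the same vector arrays, so the stimulated groups were also set against each other directly. CXCL2, CCL20 and IL1A were lower on arrays labelled ERBB2 than on EGF arrays, IL6 and LIF were higher, and the other 5 were not called, where 28.9% of all genes were called, 16.1% lower and 12.8% higher. The groups did not overlap for 7 of the 10, against 43.1% of all genes. With equal array medians the split over all probe sets was 2083 higher and 6706 lower, against 3799 and 3994. Both higher calls ended under several settings given above, and the count of calls was 3, all of them lower, with 1 added to the signal, without the filter, or without EGF replicate 1. The groups also differ in the virus, so kind and duration of the stimulus cannot be told apart.

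**Figure D3:**
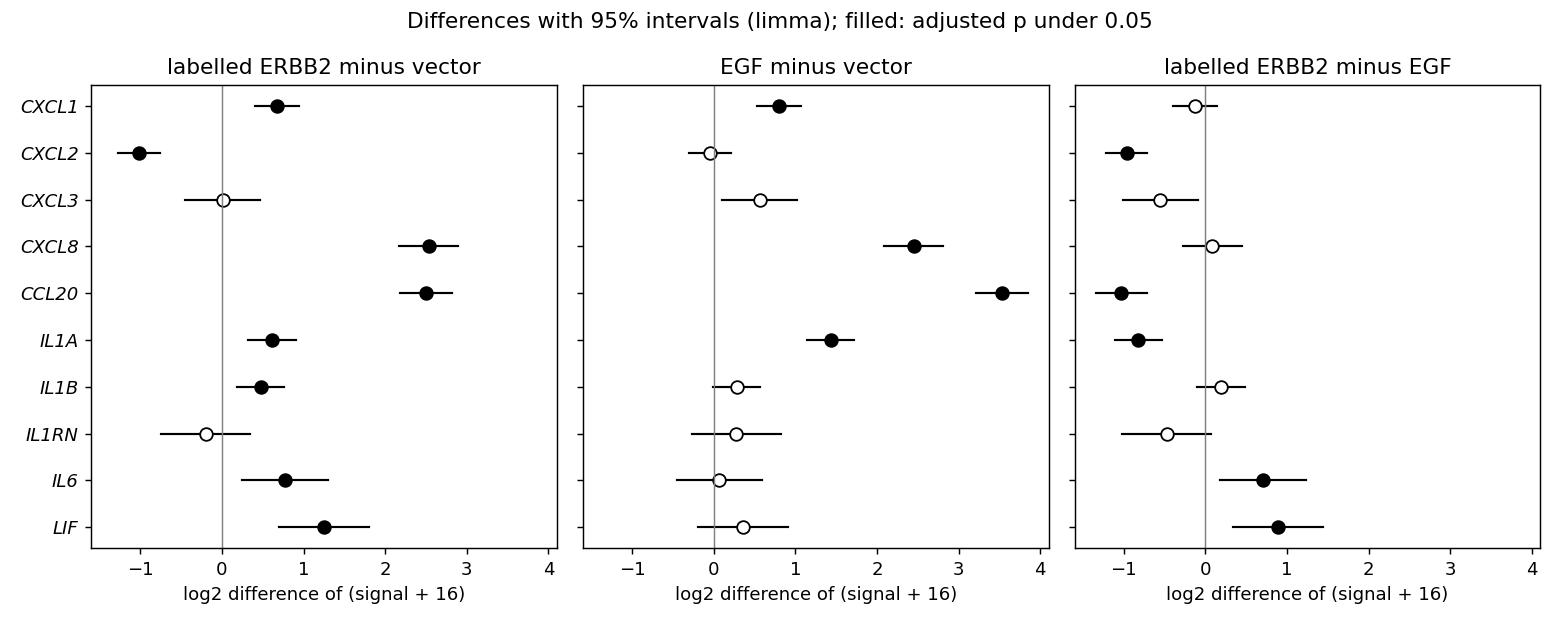
Log2 differences of signal + 16 with 95% intervals for the 10 genes, each by its brightest probe set, for arrays labelled ERBB2 minus vector, EGF minus vector, and arrays labelled ERBB2 minus EGF. Filled points have a limma adjusted p under 0.05. CXCL8 lies near 2.5 in both comparisons with vector, CCL20 reaches 3.53 with EGF, and IL6 and LIF are filled only in the panels of arrays labelled ERBB2.

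Receptors were listed for these ligands and for related cytokines. Of the 17 genes 14 were measured above the filter, and 9 fell and 4 rose on arrays labelled ERBB2, where 25.1% of all genes were called lower and 20.8% higher. With EGF 8 fell and 1 rose, where 19.0% of all genes were called lower and 17.2% higher. Among receptors of the 10 members themselves the directions were mixed on arrays labelled ERBB2, where IL1R1, LIFR and IL6R fell and CXCR1, IL1RAP and IL1R2 rose, while CXCR2 and CCR6 did not pass the filter. Over the 14 measured receptors of the list, the median log2 difference was -0.70 on arrays labelled ERBB2 and -0.45 with EGF. The all-gene medians were -0.07 and -0.10. IL1R1, the signalling receptor of interleukin 1, read 160.9, 170.2 and 119.3 on arrays labelled ERBB2, 250.2, 254.9 and 262.5 on EGF arrays, and 821.4, 893.6 and 785.0 on vector arrays. The groups did not overlap, and the log2 falls were -2.37 and -1.64 (limma adjusted p = 5.203e-12 and 2.62e-09). IL1RAP, the coreceptor of IL1R1, went the other way, with rises of 0.88 and 1.36. LIFR, the LIF receptor, read 50.2, 32.5 and 25.6 on arrays labelled ERBB2, 52.9, 62.4 and 46.7 on EGF arrays, and 246.5, 248.1 and 244.3 on vector arrays. All 6 stimulated arrays were far below the vector arrays, by -2.36 and -1.91 (limma adjusted p = 1.777e-09 and 7.937e-08), and 4 further LIFR probe sets had the same signs. IL6R, the IL6 receptor, fell as well (-1.87 and -0.91).

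For IL6ST, the shared subunit, the brightest probe set fell on arrays labelled ERBB2 (-0.97), but 2 of 4 others were called higher, so its direction there is unsettled. CXCR1, the receptor of CXCL8 that is best known from neutrophils, read 52.1, 79.9 and 58.5 on arrays labelled ERBB2, 3.71, 4.60 and 25.9 on EGF arrays, and 4.90, 21.2 and 6.02 on vector arrays. It rose by 1.61 on arrays labelled ERBB2 (limma adjusted p = 0.0002902). IL1R2, a decoy receptor that binds interleukin 1 without signalling, rose there by 0.82 (limma adjusted p = 0.0284). Over the 20 alternatives, which were applied to these lists after seeing the data, the receptors that fell numbered 7 to 9 on arrays labelled ERBB2 and 5 to 8 with EGF.

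Genes of NF-kB, C/EBP and mRNA decay made up another list. Of 11 listed 9 were measured, and 7 fell with none rising in the limma test, while with EGF 3 fell and none rose. Of all genes 25.1% were called lower on arrays labelled ERBB2 and 19.0% with EGF. At an unadjusted p under 0.05 the counts were 7 lower on arrays labelled ERBB2 and 4 lower with EGF, with 0 higher in both. The list's medians were -0.65 on arrays labelled ERBB2 and -0.24 with EGF. TNFAIP3, or A20, a feedback inhibitor of NF-kB, read 86.0, 55.3 and 59.1 on arrays labelled ERBB2, 279.7, 220.3 and 230.0 on EGF arrays, and 255.3, 317.6 and 293.8 on vector arrays. It was below all other arrays under the ERBB2 label (-1.89, limma adjusted p = 3.396e-09), and EGF and vector arrays overlapped. NFKBIA, the inhibitor IkB alpha, fell in both comparisons (-1.55 and -0.91), as did NFKBIZ, a nuclear IkB protein (-1.60 and -0.87). TNFAIP3 and NFKBIZ each had a further probe set, of the same sign in both comparisons. RELA and NFKB1, which encode NF-kB subunits, were at -0.13 and 0.05 on arrays labelled ERBB2 and were not called. NFKB2, which encodes another subunit, fell there (-0.647, limma adjusted p = 0.004273) and was not called with EGF (-0.355, limma adjusted p = 0.1283). With equal array medians the counts with EGF became 2 higher and 2 lower.

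**Figure D4:**
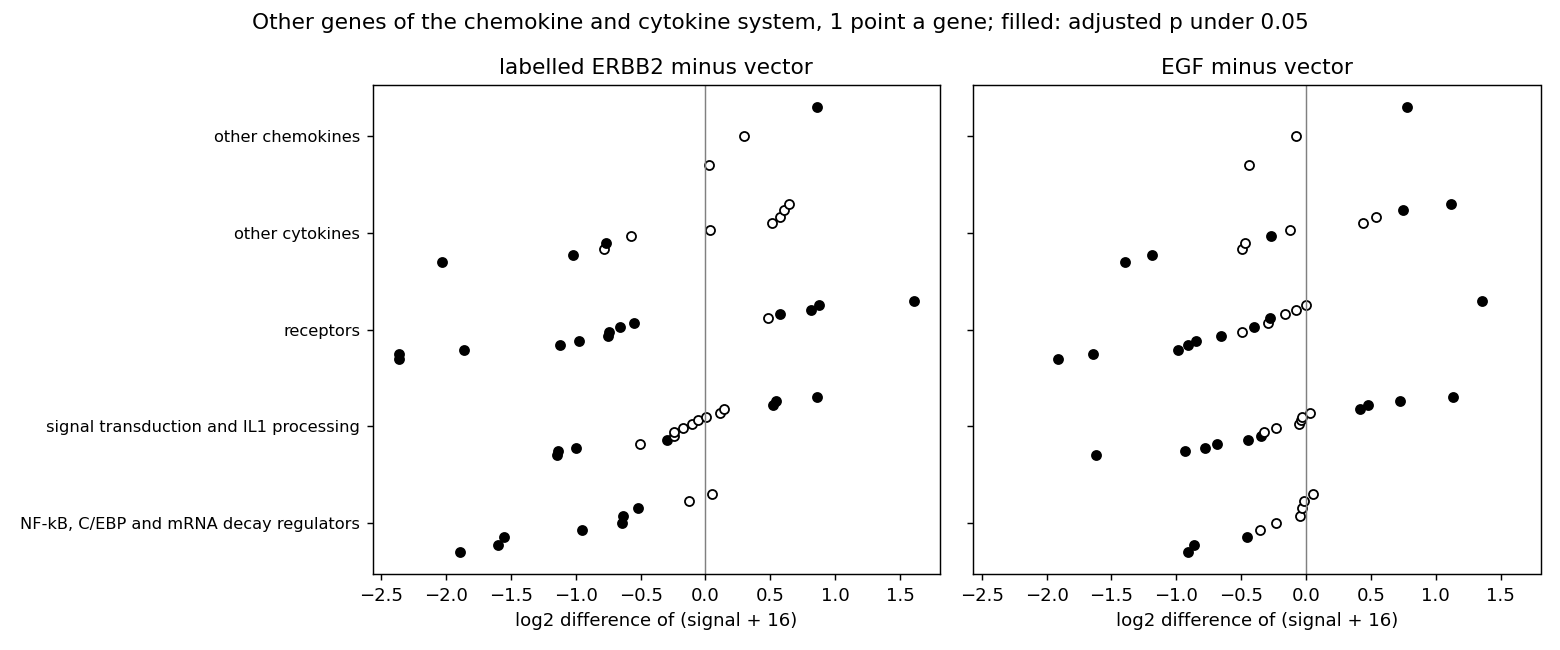
Log2 differences of signal + 16 for the other genes of the chemokine and cytokine system past the filter, 1 point a gene, in 5 lists, for arrays labelled ERBB2 minus vector (left) and EGF minus vector (right). Filled points have a limma adjusted p under 0.05. On the left 9 of 14 receptors and 7 of 9 NF-kB, C/EBP and mRNA decay genes are filled below 0.

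Of 14 further chemokines 3 passed the filter, and CXCL16, a membrane-bound chemokine, rose by 0.86 on arrays labelled ERBB2 and 0.78 with EGF, a call that the EGF comparison lost without vector replicate 3. Of 22 further cytokines 10 passed the filter, with medians of -0.27 on arrays labelled ERBB2 and -0.20 with EGF. On arrays labelled ERBB2, 3 fell, where 25.1% of all genes were called lower. They were IL15, a growth factor of lymphocytes (-2.03), IL18, a relative of IL1B (-1.02), and CSF1, the macrophage growth factor (-0.77). For CSF1 the arrays labelled ERBB2 and the vector arrays overlapped. Over the 20 alternatives the falls there numbered 2 or 3 and the rises 0 to 2. With EGF, IL15 (-1.39), CSF1 (-1.19) and IL18 (-0.27) fell, while CSF3, the granulocyte growth factor G-CSF (1.12), and IL12A (0.75) rose, where 19.0% of all genes were called lower and 17.2% higher. These 5 calls became 3, of which 1 was higher and 2 lower, without EGF replicate 1, without EGF replicate 3, without vector replicate 3, and without the filter. CSF3 read 61.1, 74.3 and 88.3 on EGF arrays and 21.5, 33.8 and 21.8 on vector arrays, with no overlap. IL12A read only 20.9, 27.5 and 21.9 on EGF arrays and 13.8, 1.79 and 8.13 on vector arrays. Its rise (limma adjusted p = 0.04071) is therefore limited by background. In the list of signal transduction and interleukin 1 processing, 16 of 18 were measured, and 3 rose and 4 fell on arrays labelled ERBB2, while 4 rose and 6 fell with EGF, or 4 and 3 with equal array medians. The 7 of 16 called on arrays labelled ERBB2 are near the background of 45.9% of all genes, and with EGF the 10 of 16 stand beside 36.2%. IRAK2, a kinase of interleukin 1 signalling, rose in both (0.86 and 1.13), and SOCS3, a feedback inhibitor of IL6ST signalling, fell in both by its brightest probe set (-1.14 and -1.62), though 1 of its 2 other sets had the opposite sign in each comparison.

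Genes whose profile lay nearest to a member's were sought among 7942 genes with a group mean above 100, by the root mean square difference of log2 values over the 9 arrays after centring on the vector arrays. For CXCL8 they were LYAR (0.28) and DUSP4 (0.28), a phosphatase of MAP kinases, and for CCL20 they were the transcription factor gene EGR1 (0.27) and INHBA (0.28), a subunit of activin. For CXCL1 they were NOP14 (0.09) and TMEM185B (0.10), for CXCL2 TUBA1A and HOOK3 (0.11 each), and for CXCL3 TSR3 (0.10) and BMS1P20 (0.13). IL1A lay nearest to MLKL and TRNT1 (0.15 each), IL1B to ENO1 and INTS10 (0.06 each), IL1RN to PHACTR2 (0.16) and SLC41A1 (0.19), IL6 to CRELD2 (0.14) and MRPL54 (0.15), and LIF to PTGES2 (0.17) and DUSP23 (0.23). Members with small changes have many genes near them, so small distances do not mark a closer likeness.

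Since leukocytes are a major source of these ligands in tissue, markers of other cell types were read as well. The 8 leukocyte markers with a probe set summed to 242.0 to 317.0 on arrays labelled ERBB2, 257.6 to 300.7 on EGF arrays and 317.8 to 385.0 on vector arrays. The defining markers PTPRC and CD3E averaged 8.86 and 8.36 on arrays labelled ERBB2, 5.07 and 4.56 on EGF arrays, and 11.4 and 14.1 on vector arrays, all below the filter, as was LYZ. The other 5 passed it, and most of the sum came from CD14, which averaged 152.7 on arrays labelled ERBB2, 189.9 on EGF arrays and 162.8 on vector arrays, and CSF1R, which averaged 55.7 on arrays labelled ERBB2, 41.0 on EGF arrays and 83.6 on vector arrays. The 7 fibroblast markers summed to 399.1 to 578.2 on arrays labelled ERBB2 and 511.2 to 565.3 on EGF arrays. On vector arrays the sum was 1371 to 1519, most of it DCN, which averaged 1345 there. COL1A1 also passed the filter and was called lower on arrays labelled ERBB2 against vector (-0.548, limma adjusted p = 0.0187). COL1A2 passed it and was not called, while COL3A1, LUM, PDGFRA and PDGFRB stayed below it. The 5 endothelial markers summed to 113.9 to 134.2 on arrays labelled ERBB2 and 46.1 to 71.3 on EGF arrays. On vector arrays they summed to 77.6 to 101.5. Those past the filter went opposite ways on arrays labelled ERBB2 against vector. PECAM1 rose (1.272, limma adjusted p = 7.803e-05) and KDR fell (-1.091, limma adjusted p = 0.001318). The part of these marker shifts in the results was not tested.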

How the data were processed

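The authors deposited linear signal intensities, summarised by probe set. The submitters' processing notes name MAS5, whose version is not given in the sources used here. Deposited intensities have a mean of 100 on each of the 9 arrays after trimming, so arrays appear scaled as wholes, which would absorb part of a broad shift in expression. Present and absent calls were not used. The share of probe sets under 16 was 44.15% to 47.25% on arrays labelled ERBB2, 48.63% to 50.57% on EGF arrays and 44.56% to 44.72% on vector arrays. Array medians were 17.94 to 20.06, 15.57 to 16.9 and 19.85 to 20.18 in the same order. The EGF arrays were thus dimmer at low signal, and the part of this in the results with EGF was not tested. The number of arrays limits the precision.

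Values were analysed as log2(signal + 16), which understates changes of dim genes. After removal of 62 control probe sets, those with a mean log2 value above the 40th percentile were kept, leaving 32768 probe sets and 13723 genes. Of the non-control probe sets, 41091 carried 1 gene symbol, 1801 several and 11721 none. A gene was represented by its single-gene probe set with the highest mean. Groups and replicate numbers came from titles. Group means were fitted to all 9 arrays with limma 3.58.1 under R 4.3.3 (eBayes, trend on, 6 residual df), and a call was a p under 0.05 after Benjamini-Hochberg adjustment across all probe sets. An exact permutation test of 1 gene, 3 arrays against 3, can reach no p below 0.1. Promoters were aligned with Biopython 1.88.

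The genes named are the 10 members, ERBB2 and DUSP6, up to 3 rises and 3 falls of each list and the 2 nearest profiles of each member. The markers, RELA, NFKB1, NFKB2 and the second probe sets are given for context. The members and lists were chosen with earlier results of these data known.

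Alternatives changed the pseudocount (1 or 64), the filter (none, or the 60th percentile), the scaling (quantile, or equal array medians), the fit (trend off, array weights, the 6 arrays compared, replicate number as block), or the probe sets (averaged per gene), or left out 1 array. Applied to the pathway lists, they were chosen after seeing the data.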

Additional observations from a re-analysis of the deposited data

How the results depend on the processing

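Over 20 alternatives, 7 or 8 members were called on arrays labelled ERBB2 against vector and 4 to 6 with EGF. As reported, 45.9% and 36.2% of all genes were called in these comparisons. The count of 6 with EGF came with equal array medians, where 7328 of 32768 probe sets were called higher and 2063 lower. It also came with all probe sets averaged, where 1991 of 11865 genes were called higher and 2419 lower. For arrays labelled ERBB2 against EGF the count was 3 with 1 added to the signal and 3 without the filter, against 5 as reported, 6 with all probe sets averaged, and between 3 and 5 on leaving out single arrays. In that comparison 3504 of 32768 probe sets were called higher and 3906 lower with 1 added. Without the filter 3236 and 3398 of 54613 were called, and with sets averaged 1692 and 1494 of 11865 genes. Of the member differences under the alternatives, 545 kept sign and side of the threshold, 21 lost a call, 14 gained one and 14 changed sign. The cause was not tested. Changing the filter, the trend, the block or the set of arrays to the 6 compared leaves a difference as it was. So does leaving out an array of the group not compared. In those settings only the p-value could move and the sign was fixed, so the tally overstates how stable the signs are. With equal array medians CXCL2 with EGF was at 0.236 and CXCL8 on arrays labelled ERBB2 against EGF at -0.112. With array weights CXCL3 on arrays labelled ERBB2 against vector was at -0.022. With all probe sets averaged IL1A on arrays labelled ERBB2 was at -0.086 and IL1RN with EGF at -0.126. On leaving out single arrays, CXCL2 with EGF lay between -0.118 and 0.002, CXCL3 on arrays labelled ERBB2 between -0.117 and 0.162, CXCL8 between the stimuli from -0.054 to 0.203, IL1RN on arrays labelled ERBB2 between -0.364 and 0.025, and IL6 with EGF between -0.039 and 0.252, none of them called. Same-numbered arrays of different groups did not deviate together (correlations of -0.03 to 0.019 over 9 pairs), so no pairing by number was seen. That does not show that same-numbered samples were prepared apart. With the replicate block the counts were 8 on arrays labelled ERBB2, 4 with EGF and 4 between them, where IL6 lost its call. Over all 32768 probe sets that block gave 5761 higher and 6790 lower, 4196 and 5116, and 3708 and 3910, in the same order. IL6 and IL1RN gave no value with the filter at the 60th percentile. Signals near or under 16, as for IL6, IL1RN, CXCL3 and the vector arrays of LIF and CXCL8, are limited by background.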
